A study of Caenorhabditis elegans with 2 samples.

Results

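Aminoacyl tRNA synthetase genes were examined for recovery with C08G9.2, a Caenorhabditis elegans protein annotated as uncharacterized, in late embryos. The members are the protein-coding genes of the Ensembl annotation whose name is a single letter followed by ars- and a number. There are 32 of them among 19973 protein-coding genes on the nuclear chromosomes. All samples came from hermaphrodite worms of strain OP513, genotype unc-119(tm4063) III; wgIs513, a line that expresses C08G9.2 with a C-terminal GFP-FLAG tag. Embryos were taken 5 hours after synchronization by bleaching and were precipitated whole with an antibody against GFP, in 2 biological replicates. There was 1 group and no second condition. A control library is named in the deposited records and was not analysed here, and no untagged worms were compared. Each library mixes all embryonic cell types, so the recovery of a region in a few cells and weak recovery in many cells cannot be told apart.

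Each aminoacyl tRNA synthetase joins an amino acid to its matching tRNA, and the charged tRNA then carries it to the ribosome. Cytosolic synthetases serve cytosolic translation. Mitochondrial synthetases are encoded in the nucleus, imported, and serve the separate translation system inside mitochondria. For some amino acids 1 nuclear gene makes both forms, usually from isoforms with and without a targeting sequence. By these roles 16 members were taken as cytosolic, 12 as mitochondrial and 4 as serving both compartments (gars-1, hars-1, kars-1 and tars-1). The RefSeq product name gave the compartment of 13 genes, and general knowledge of the genes gave that of the other 19.

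The recovered regions are peak lists, and each region carries a signal value without a stated scale, so signals and ranks are read within a list. The list called on both replicates pooled holds 30000 regions, and the replicate lists hold 27783 and 29382 regions for replicates 1 and 2. These 3 lists include weak background regions by design. A thresholded list of 1416 peaks, chosen by the authors by how alike the replicates ranked regions, holds the strongest. A gene was counted as having a peak where a thresholded summit lay within 500 bp of its start, the 5′ end of its annotated record. The lists hold no read counts, so depth is unknown.

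Peaks were found at the starts of 4 of the 32 synthetase genes (12.5%), against 4.13% of all protein-coding genes. They were ears-2 (mitochondrial glutamyl), kars-1 (lysyl, both compartments), mars-1 (cytosolic methionyl) and yars-2 (mitochondrial tyrosyl). By compartment this was 1 of 16 cytosolic genes, 2 of 12 mitochondrial genes and 1 of 4 genes serving both. These counts differ by 1 gene, and no test of the list or of the compartments was made. With a 250 bp limit 2 genes were left, ears-2 and yars-2, against 2.53% of all protein-coding genes. The same 4 genes were counted under the other rules. The share of all protein-coding genes was then 5.6% with a 1000 bp limit, 4.52% with any transcript start, 4.76% with region overlap and 3.23% with the nearest start only. It was 2.54% with the 708 strongest peaks, 3.79% away from small RNA genes, 4.14% without replicate 1 and 3.97% without replicate 2.

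The sequences under these 4 summits are shown because they are the places of recovery. Each is 201 bases of the WBcel235 genome (RefSeq copy, the ce11 build) with the summit in the middle, written 5′ to 3′ on the strand of the synthetase gene, which is the minus strand for all 4. Capitals mark TATCCATT, an 8-base run taken up below. The windows are chrIV:390400-390600 for ears-2, chrII:7072716-7072916 for kars-1, chrIV:11635677-11635877 for mars-1 and chrIV:4712499-4712699 for yars-2.
ears-2: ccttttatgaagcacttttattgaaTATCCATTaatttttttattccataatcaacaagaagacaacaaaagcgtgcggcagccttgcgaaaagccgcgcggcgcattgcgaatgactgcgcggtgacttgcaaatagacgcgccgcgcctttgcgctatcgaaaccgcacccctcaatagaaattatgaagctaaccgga
kars-1: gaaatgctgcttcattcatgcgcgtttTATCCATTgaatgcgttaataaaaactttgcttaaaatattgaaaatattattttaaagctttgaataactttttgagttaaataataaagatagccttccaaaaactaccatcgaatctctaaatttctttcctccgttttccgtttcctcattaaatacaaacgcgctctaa
mars-1: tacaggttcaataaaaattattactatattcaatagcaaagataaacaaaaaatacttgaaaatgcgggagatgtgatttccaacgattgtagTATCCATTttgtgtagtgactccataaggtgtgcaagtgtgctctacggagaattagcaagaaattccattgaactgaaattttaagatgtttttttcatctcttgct
yars-2: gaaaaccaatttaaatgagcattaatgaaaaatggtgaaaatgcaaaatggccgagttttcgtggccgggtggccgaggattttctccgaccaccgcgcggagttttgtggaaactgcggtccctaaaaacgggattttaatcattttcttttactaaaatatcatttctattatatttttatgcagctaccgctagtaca

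The ears-2 region had the highest signal of the family. ears-2 (WBGene00001338, chromosome IV, 388686 to 390468, minus strand) had a signal of 252 in replicate 1 and 271 in replicate 2, at ranks 49 and 45 of those lists. Its pooled signal was 524, at rank 39 of 30000. Both replicates and the pooled list therefore placed it within the first 50 regions. The region (390334 to 390625, 292 bp) has its summit 32 bp upstream of the ears-2 start. The start of uncp-18, transcribed the other way, lies 92 bp from that of ears-2. The region spans both starts and counts for both genes, with ears-2 the nearer.

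kars-1 (WBGene00002238, chromosome II, 7070183 to 7072415, minus strand) had a signal of 160 in replicate 1 and 142 in replicate 2, at ranks 150 and 241. The pooled signal was 303, at rank 179. This is a short region (7072729 to 7072970, 242 bp) in the sequence between genes, and its summit lay 401 bp upstream of the kars-1 start in the pooled list and in replicate 1 and 416 bp upstream in replicate 2. The next gene upstream, kat-1, a thiolase gene of fatty acid breakdown, is transcribed the other way and starts 1399 bp from kars-1.

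mars-1 (WBGene00003415, chromosome IV, 11631941 to 11635487, minus strand) had a signal of 127 in replicate 1 and 148 in replicate 2, at ranks 233 and 221. The pooled signal was 281, at rank 212. The region (11635703 to 11635866, 164 bp) also lay between genes, with its summit 290 bp upstream of the start in the pooled list and in replicate 2 and 308 bp upstream in replicate 1. The next upstream gene, F58B3.6, runs the other way and starts 1161 bp away.

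yars-2 (WBGene00006968, chromosome IV, 4710861 to 4712624, minus strand) had the lowest signal of the 4, at 84.3 in replicate 1 and 83.3 in replicate 2, which are ranks 464 and 597. The pooled signal was 165, at rank 525, above the lowest thresholded signal of 97.0. Its region (4712384 to 4712813, 430 bp) lay over the start itself. The pooled summit was 25 bp inside the gene, in an untranslated exon, and the replicate summits were 3 and 10 bp upstream. The gene just upstream lies on the same strand and ends 201 bp before yars-2, a layout often seen in worm operons.

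**Figure D1:**
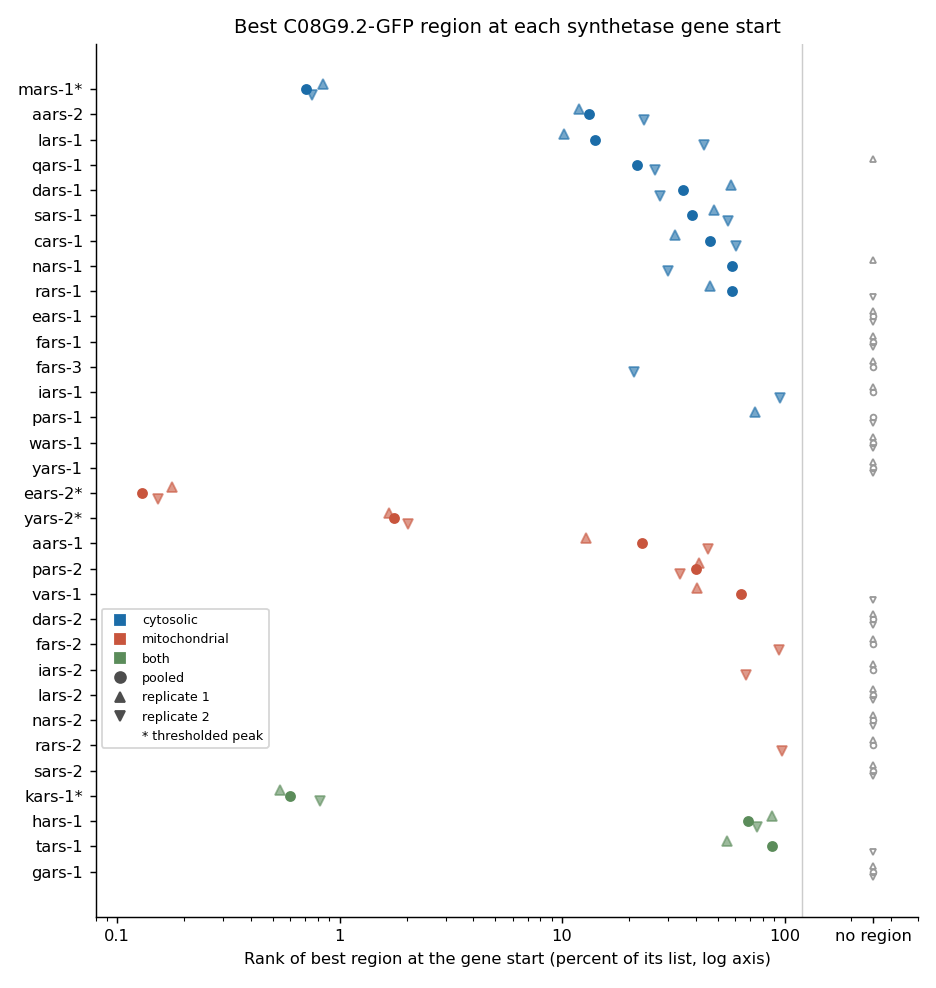
Rank of the best region within 500 bp of each of the 32 synthetase gene starts, as a percent of its list on a log axis, where lower is stronger, in the pooled list (circles) and in replicates 1 and 2 (triangles). Open grey symbols mark genes with no region in that list, and asterisks mark the 4 genes with a thresholded peak, which lie well to the left of all others in all 3 lists.

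A gap separated these 4 genes from the rest of the family. The choice of peaks sets part of it, because peaks are the highest-signal pooled regions, down to a signal of 97.0. The next strongest, aars-2 (cytosolic alanyl), had a pooled signal of 65.4 at rank 3969, with 35.5 in replicate 1 and 31.1 in replicate 2. Then came lars-1 (cytosolic leucyl), with a pooled signal of 63.8 at rank 4220, and ranks of 2837 in replicate 1 and 12722 in replicate 2. No member other than the 4 had a pooled rank of 3000 or better.

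**Figure D2:**
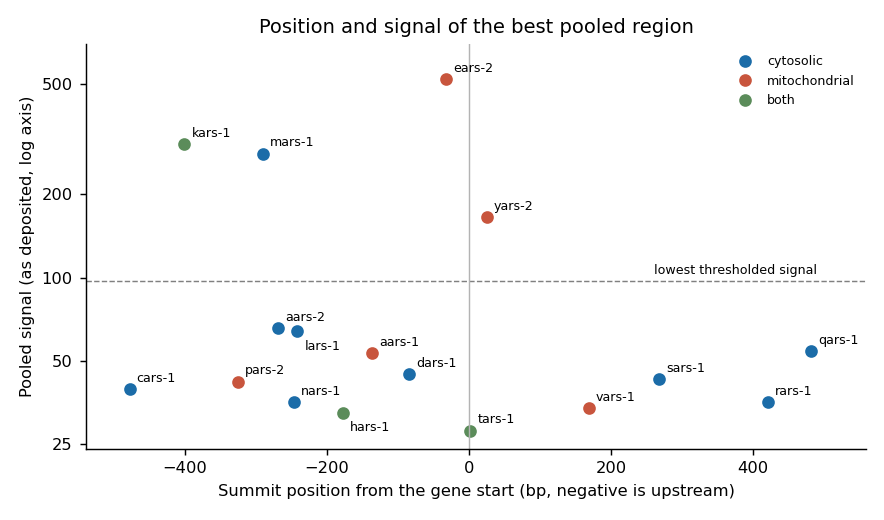
Pooled signal, as deposited and on a log axis, against the position of the summit from the gene start in bp for the 17 synthetase genes with a pooled region within 500 bp, coloured by compartment. The dashed line is the lowest thresholded signal, 97.0, and 4 genes lie above it, 3 with summits upstream of the start and 1, yars-2, with its summit 25 bp inside the gene.

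Pooled regions of any strength were common at synthetase starts. In total 17 of the 32 genes (53.1%), the 4 with a peak among them, had some pooled region within 500 bp. The share was 32.2% of all protein-coding genes, those with a peak included. Within 250 bp 10 members had one, against 19.4% of all protein-coding genes, and within 1000 bp 23 members did, against 46.7% of all protein-coding genes. Replicate 1 had a region within 500 bp at 16 of the 32 members and replicate 2 at 19, against 30.1% and 31.8% of all protein-coding genes. The median rank of the best pooled region was 10464 among the 17 synthetase genes and 11356 among the 6429 protein-coding genes that had one, and the family's ranks ran over 39 to 26421. Outside the 4 peaks, the synthetase regions were spread through the list, from aars-2 at 13.2% of it to tars-1 at 88.1%, counted from the strongest. The weakest were those of vars-1 (pooled signal 33.6), hars-1 (histidyl, 32.4) and tars-1 (threonyl, 27.9).

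The summits of the 17 pooled regions lay upstream of the start in 11 genes and at or after it in 6. Of the 6, those of qars-1 (cytosolic glutaminyl), rars-1 (cytosolic arginyl) and sars-1 (cytosolic seryl) lay in the gene's own coding exons. The vars-1 summit (mitochondrial valyl) lay in its own intron and those of tars-1 and yars-2 in an untranslated exon. The tars-1 start also lies inside an intron of kel-1. At the edge of the 500 bp limit stood qars-1, with a summit 482 bp after the start and a pooled signal of 54.1, and cars-1 (cysteinyl), 478 bp upstream with 39.4. Among regions listed in 1 replicate alone, the pars-1 summit in replicate 1 lay 499 bp and the fars-3 summit in replicate 2 lay 495 bp after the start. No thresholded summit lay between 500 and 1000 bp of any member's start.

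No region was listed within 500 bp of the start in any of the 3 lists for 9 members. These were the cytosolic ears-1, fars-1, wars-1 and yars-1, the mitochondrial dars-2, lars-2, nars-2 and sars-2, and gars-1, which makes the glycyl enzyme of both compartments. Another 6 had a region in 1 replicate list and none in the pooled list. Of these, fars-3 (the beta subunit of the cytosolic phenylalanyl enzyme) had a signal of 32.3 at rank 6196 in replicate 2. The others, iars-1, pars-1, fars-2, iars-2 and rars-2, had ranks between 19735 and 28740 in the list that held them. In the pooled list 15 of the 32 members had no region, against 13544 of all 19973 protein-coding genes, so lacking one was less common in the family. The share of all genes with no region in any of the 3 lists is not given here. A gene with no listed region may still carry signal below what was called.

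The 4 genes with a peak were placed alike by the replicates, and the weaker regions varied. Of the 12 members with a region in both replicate lists, all were also in the pooled list. The reverse did not hold for all 17 members with a pooled region. For qars-1 and nars-1 replicate 1 listed no region within 500 bp, and for rars-1, tars-1 and vars-1 replicate 2 listed none. Spearman's rank correlation of replicate 1 and replicate 2 signal was 0.811 over these 12 genes and 0.381 over the 8 of them without a peak. It was 0.649 over the 3932 protein-coding genes with a region in both lists. These are descriptions across genes, and the 4 peaks were chosen by the authors' threshold partly for being alike. All values come from the same 2 libraries. Among the 8, aars-1 (mitochondrial alanyl) ranked 3568 in replicate 1 and 13261 in replicate 2, with the best summit 132 bp upstream and 377 bp after the start. For dars-1 (cytosolic aspartyl) the replicate ranks were 15879 and 8142, with summits 397 bp after and 98 bp before the start. In cars-1 and pars-2 too, the best summits of the replicates lay on opposite sides of the start, so that different regions were the strongest there. In lars-1 they lay 242 and 256 bp upstream, in aars-2 308 and 270 bp upstream and in hars-1 116 and 178 bp upstream. In sars-1 they lay 226 and 270 bp after the start. The summits of each of the 4 peaks lay within 35 bp of each other over the 3 lists.

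**Figure D3:**
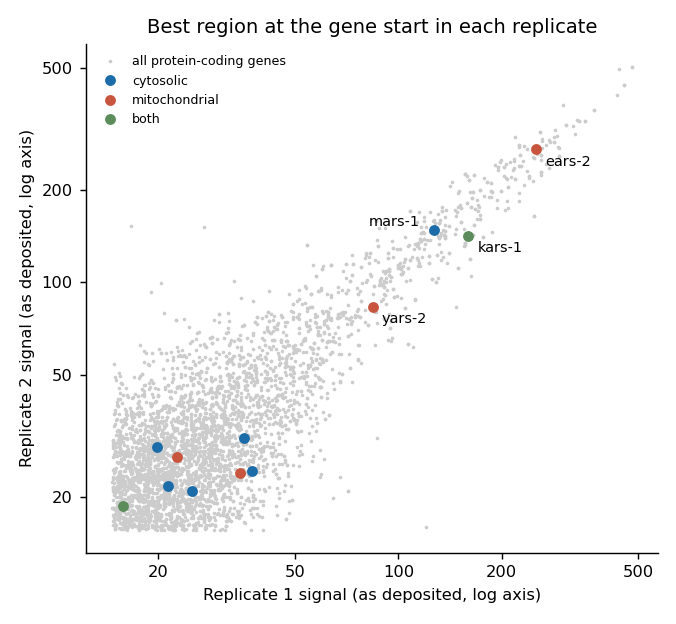
Signal of the best region within 500 bp of the gene start in replicate 1 (horizontal) and replicate 2 (vertical), both as deposited and on log axes, for the 12 synthetase genes with a region in both lists, coloured by compartment, over the 3932 protein-coding genes with both (grey). The 4 named genes with a thresholded peak stand apart from the other 8.

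The cytosolic and mitochondrial genes for the same amino acid were set side by side. Both kinds exist among the members for 11 amino acids, which gives 12 pairs because the cytosolic phenylalanyl enzyme has 2 subunit genes. The cytosolic gene had the stronger pooled region in 6 pairs, the mitochondrial gene in 3, and neither had one in 3. In only 1 pair, the alanyl one, did both genes have a pooled region (cytosolic aars-2 at 65.4 and mitochondrial aars-1 at 53.2).

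In no pair did both genes carry a peak. Peaks stood at 4.13% of all protein-coding genes, and with peaks this rare the lack of a shared pair is not read as a trait of the pairs. For glutamate the mitochondrial ears-2 had its peak, and the cytosolic ears-1 had no region in any list although it too has a divergent start nearby, that of ZC434.3 at 265 bp. For tyrosine the mitochondrial yars-2 had its peak and the cytosolic yars-1 had no region in any list. In the proline pair the mitochondrial pars-2 had a weak region (pooled signal 42.0, rank 12057) and the cytosolic pars-1 was listed in replicate 1 alone, at rank 20398.

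The opposite held for leucine, aspartate, serine, asparagine and arginine. In these pairs the cytosolic gene had a weak pooled region, with signals of 63.8 for lars-1, 44.7 for dars-1, 42.8 for sars-1, 35.4 for nars-1 and 35.3 for rars-1. The mitochondrial partners lars-2, dars-2, sars-2, nars-2 and rars-2 had no pooled region. Of the cytosolic genes, nars-1 was listed in replicate 2 alone, at rank 8781, and rars-1 in replicate 1 alone, at rank 12898. In replicate 2 it was rars-2 that was listed, at rank 28740, so the replicates did not give the arginine pair the same order. In the isoleucine pair and both phenylalanine pairs neither gene had a pooled region. Any pooled region was present at 9 of 16 cytosolic genes (56.2%), 5 of 12 mitochondrial genes (41.7%) and 3 of 4 genes serving both, against 32.2% of all protein-coding genes. Median ranks of those regions were 10464 for the 9 cytosolic genes, 6836 for the 5 mitochondrial genes and 20564 for the 3 others. The replicates did not give the same order of cytosolic and mitochondrial genes. In replicate 1 the medians were 10902 for cytosolic and 3568 for mitochondrial genes with a region, and in replicate 2 they were 8462 and 13261. The shares of both cytosolic and mitochondrial genes lay above that of all protein-coding genes, and the difference between the compartments was not tested.

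The gene layout upstream differed between the compartments. A protein-coding gene on the same strand ended within 500 bp before the start of 7 of 12 mitochondrial members (58.3%), 3 of 16 cytosolic members (18.8%) and 1 of 4 serving both, against 18.1% of all protein-coding genes. Worm genes in this layout are often read from a promoter further upstream, as operons are. Of the 11 members in this layout, 3 had any pooled region (27.3%: rars-1, vars-1 and yars-2), and of the other 21 members 14 did (66.7%). Over all protein-coding genes the shares were 29.1% in this layout and 32.9% outside it. Peaks stood at 1 of the 11 and 3 of the 21 members, and at 2.47% and 4.5% of all protein-coding genes in those layouts. By compartment, any pooled region was present at 1 of 3 cytosolic and 2 of 7 mitochondrial members in this layout, and at 8 of 13 cytosolic and 3 of 5 mitochondrial members outside it. Peaks stood at 0 of 3 cytosolic and 1 of 7 mitochondrial members in this layout, and at 1 of 13 and 1 of 5 outside it. Compartment and layout moved together here, and the part of layout in these counts was not tested. The grouping by layout was chosen after the values were seen.

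**Figure D4:**
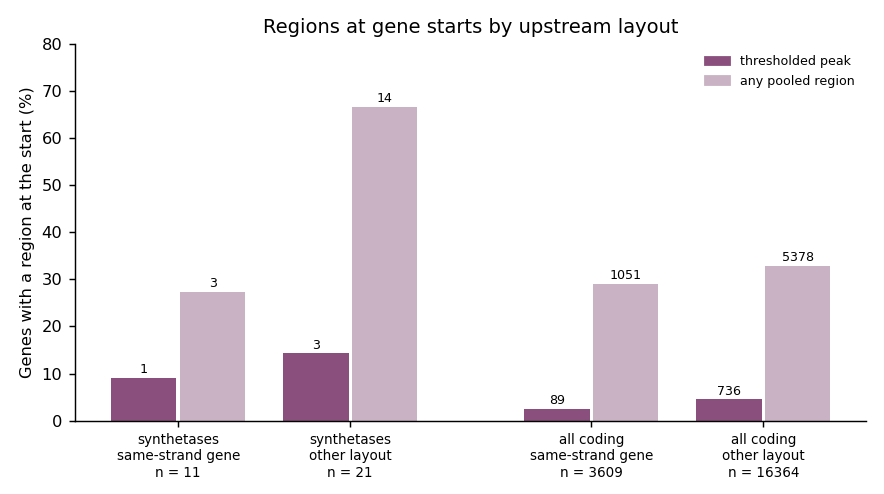
Percent of genes with a thresholded peak (dark) or any pooled region (light) whose summit lay within 500 bp of the start, by whether a same-strand protein-coding gene ends within 500 bp upstream, for synthetase genes (left) and all protein-coding genes (right). Numbers over the bars are genes, and among synthetases a pooled region was present at 3 of 11 genes with such a neighbour and 14 of 21 without.

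The sequences under the peaks varied in base content. The summit with 50 bases on each side held 58.4% G and C for ears-2, 52.5% for yars-2, 40.6% for mars-1 and 22.8% for kars-1. The median was 50.5% over all 1416 thresholded windows, with quartiles of 45.5% and 55.4%, so kars-1 lay far below most peaks, whose lowest value was 19.8%. It was 44.6% over the 28206 weaker pooled regions away from these peaks.

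In these windows 5 motifs were searched on both strands, and none was found in the 4 peak windows. The motif GTTCGANTC is the core of the B box of tRNA genes, which RNA polymerase III factors read. It stood in 2.82% of all thresholded windows and 0.39% of the weaker pooled windows. The run GAGACGC was in 8.12% of thresholded windows and 2.24% of the weaker ones. The E-box CACGTG was in 1.91% and 2.65%, the run TATAAA in 3.25% and 6.14%, and the E2F-like run TTTCGCG in 3.53% and 1.89%. Among the 17 members with a pooled region, the E-box was in the hars-1 window and the other 4 motifs were in none. No tRNA gene started within 1000 bp of any of the 32 members. The share of all protein-coding genes with a tRNA gene that near is not given here, so this is not read as a trait of the family. The nearest to a member lay 46569 bp away (dars-2), and the nearest to a gene with a peak lay 67765 bp away (ears-2).

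The printed 201-base windows of ears-2, kars-1 and mars-1 share the run TATCCATT, in each case on the strand of the gene. Its first base is base 26 in ears-2, 28 in kars-1 and 94 in mars-1, so it lies well before the summit in the first pair and over the summit in mars-1. The run was picked after a search for 8-base runs present in at least 3 of the 4 windows, which gave 2, the other being a run of A and T alone. The run was present in 22 of 1416 thresholded windows of that length (1.55%) and in 0.893% of the weaker pooled windows. The 22 include the 3 windows from which it was picked, which raises the first share. TATCCATT is a match of letters chosen among many. The search left out runs shared by fewer windows. An example is CCGCGCGG, which lies over the summits of ears-2 and yars-2 and was not counted in other windows.

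Away from gene starts, 1 more thresholded peak lay within a synthetase gene. It was in an intron of fars-1, the other subunit of the cytosolic phenylalanyl enzyme (chromosome I, 6212660 to 6213089, signal 124, rank 832), 1810 bp after the start. The summit there lay over the non-coding RNA gene T08B2.14 and over a pseudogene (WBGene00023344). It ranked 1656 in replicate 1 and 682 in replicate 2.

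A few synthetase genes are named outside the family's naming rule, per RefSeq product names, and were looked up after the values of the members were seen. The methionyl mitochondrial gene that RefSeq calls mars-2 (Y105E8A.20 in the Ensembl annotation) had a pooled signal of 29.0 at rank 24963, so the methionine genes, like those of glutamate and tyrosine, carried a peak at 1 gene only. Its 3′ end lies 110 bp before the start of yars-1 on the same strand. The valyl gene glp-4 had a pooled signal of 30.7 at rank 22576. No region was listed at prx-10, which is also annotated with a mitochondrial tryptophanyl product, or at K03B4.1, annotated as a seryl synthetase.

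Genes of tRNA making and use were listed as well, glp-4 among them. Of 23 listed names 21 were found in the annotation, and 3 of the 21 (14.3%) had a peak, against 4.13% of all protein-coding genes. elpc-1, which encodes a subunit of the Elongator complex that modifies tRNA wobble bases, had a pooled signal of 253 at rank 271, with 117 in replicate 1 and 136 in replicate 2. eef-1A.1 and eef-1A.2, both of which encode the elongation factor that brings charged tRNA to the ribosome, had pooled signals of 137 and 111. The rank of eef-1A.2 was 2554 in replicate 1 but 791 in replicate 2, so the replicates placed it apart. The mitochondrial counterpart tufm-1 had 61.6 at rank 4660, below the threshold. No peak stood at gcn-2, the kinase that senses uncharged tRNA (pooled signal 45.1), at atf-4, which acts downstream of it (25.6), or at rtcb-1, the tRNA splicing ligase, which had no region.

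The synthetases were set beside related gene families picked by name. Peaks were at 4 of 32 synthetase genes (12.5%), 20 of 79 cytosolic ribosomal protein genes (25.3%), 7 of 31 genes named eif- or eef- (22.6%, which include both eef-1A genes above) and 3 of 66 mitochondrial ribosomal protein genes (4.55%), against 4.13% of all protein-coding genes. The mitochondrial ribosomal share was thus near that of all genes. Any pooled region was present at 53.1% of synthetase genes, 84.8% of cytosolic ribosomal protein genes, 71.0% of the factor genes and 53.0% of mitochondrial ribosomal protein genes, against 32.2% of all protein-coding genes. The median rank of the best pooled region was 10464 for synthetases, 5048 for cytosolic ribosomal proteins, 4372 for the factors and 9069 for mitochondrial ribosomal proteins. The synthetase median was the weakest of these 4 in the pooled list only. In replicates 1 and 2 the mitochondrial ribosomal median was weaker, at 11775 and 12081 against 10092 and 9995 for synthetases. These are counts of these lists, and the differences between them were not tested.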

How the data were processed

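Chromatin immunoprecipitation and sequencing of whole late embryos gave 2 biological replicates in 1 group, numbered per the labels. The authors deposited peak lists on ce11, whose signal score per region has no stated scale, and which also hold a −log10 q-value and a summit offset. The highest −log10 q-value, 3.36, was shared by 1158 regions of the thresholded list, the 4 synthetase peaks among them, so it ranks none of them. The thresholded list was made from the pooled and replicate lists by irreproducible discovery rate, per the deposited text records, and holds the highest-signal regions of the pooled list. For the aligner, the peak caller and the thresholds, nothing is given in the sources used here. The ce10 lists were not used.

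Regions were matched by summit to gene starts of Ensembl release 115 (WBcel235), the strongest region within 500 bp being taken. Ranks count from 1 at the highest signal. Positions are 1-based. The search was first tested on simulated data with 200 planted summits, and 0 of 19973 genes were wrong. Alternatives were windows of 250 and 1000 bp, any transcript start, region overlap, the 708 strongest peaks, nearest start only, peaks away from small RNA genes, and each replicate alone with its 1416 strongest regions. The members, gene lists and motifs were chosen with earlier results of these data known. Every member is named, in full those with a peak or a pooled rank of 3000 or better and both genes of each cytosolic and mitochondrial pair. No p-value was computed. Whether the replicates came from separate cultures is not stated beyond their label. Python 3.11.15, numpy 2.4.6, pandas 2.3.3, scipy 1.17.1 and matplotlib 3.10.9 were used.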

Additional observations from a re-analysis of the deposited data

How the results depend on the processing

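The count of 4 synthetase genes with a peak, and the genes themselves, were the same with a 1000 bp window, any transcript start, region overlap, the 708 strongest peaks, nearest start only and peaks away from small RNA genes. Without replicate 1 and without replicate 2 the count was 4 in each case, with the same genes. A 250 bp window left 2 genes, ears-2 and yars-2, against 2.53% of all protein-coding genes, since the summits of kars-1 and mars-1 lie 401 and 290 bp upstream. There the cytosolic count and the count of genes serving both compartments were each 0, and the mitochondrial count stayed 2. The number of members with any pooled region was 17 and became 10 at 250 bp, an alternative chosen after seeing the data. The median rank of the members' best region was at 34.9% of the pooled list, and lay at 46.4% with 250 bp, 38.4% with 1000 bp, 34.0% without replicate 1 and 36.3% without replicate 2. No paired analysis was possible because there was 1 group. Depth is unknown, so a start with no listed region is not shown to lack the protein.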
